A study of Rattus norvegicus with 4 samples.

Results

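The MHC class II genes of the rat were described across the cell classes of 4 single-cell libraries from limb and eye muscle. The group holds 10 genes, chosen by symbol among the 25399 genes of the feature table: Cd74, RT1-Ba, RT1-Bb, RT1-Da, RT1-Db1, RT1-DMa, RT1-DMb, RT1-DOa, RT1-DOb and Ciita. Of these, 9 had a UMI (unique molecular identifier, a tag that counts an RNA molecule) in an analysed cell. Muscle was digested with enzymes and all freed cells were sequenced, from the tibialis anterior of the leg (TA) and from extraocular muscle around the eye (EOM), in rats aged 12 months. The disease state field gives the groups, called TA DMD, TA WT, EOM DMD and EOM WT here, with 1 library each. DMD is taken as Duchenne muscular dystrophy, which comes from loss of dystrophin, and WT is wild type. The sample titles state the opposite disease state in all 4 samples, so reading the titles would turn every DMD over WT direction below. No label gives the strain, the dystrophin allele, the sex or the number of animals behind a library. With 1 library a group, no difference has a replicate check and no test was possible. Values in parentheses after a level, share or ratio are 95% intervals for counting error alone, with UMIs treated as independent.

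Class II molecules are heterodimers of an alpha and a beta chain that show peptides from endosomes to CD4 T cells. RT1-Ba and RT1-Bb encode the chains of the rat molecule that corresponds to human HLA-DQ, and RT1-Da and RT1-Db1 those of the molecule that corresponds to HLA-DR. Cd74, the invariant chain, fills the groove of new dimers and guides them to the endosome. There RT1-DM, the counterpart of HLA-DM, exchanges the invariant chain fragment for peptide, and RT1-DO, the counterpart of HLA-DO, restrains that exchange. Ciita is the coactivator that switches the family on. It is recruited by RFX on the X box and NF-Y on the Y box of class II promoters. Dendritic cells, B cells and activated macrophages are the usual bearers, and other cells can gain class II under interferon gamma.

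The promoters are shown because these letters are what the members share in sequence. RefSeq windows of 300 bases (250 before to 50 after the start, build GRCr8) were found for 8 of the 10 members, and RT1-DMb and Ciita had no entry. The Y box core was searched as GATTGG, which overlaps the inverted CCAAT. An X box-like string was searched as G, any 2 bases, AC, any 2 bases and ATG. Both were sought on either strand and chosen after the windows had been read. GATTGG lay in 7 of the 8 member windows and in 14.8% of all 33469 windows, and the X-like string in 5 of the 8 and in 9.65% of all. The X-like string followed by GATTGG on the same strand, with 10 to 40 bases between them, was found in 5 of the 8 and in 28 of all 33469 windows (0.0837%). Each line gives the gene's own strand, 5′ to 3′, with these strings in capitals.
RT1-Da, chr20:4515315-4515390, plus strand: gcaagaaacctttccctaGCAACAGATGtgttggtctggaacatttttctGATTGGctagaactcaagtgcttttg
RT1-Db1, chr20:4560218-4560293, minus strand: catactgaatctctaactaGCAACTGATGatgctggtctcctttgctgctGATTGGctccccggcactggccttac
RT1-Bb, chr20:4604155-4604230, minus strand: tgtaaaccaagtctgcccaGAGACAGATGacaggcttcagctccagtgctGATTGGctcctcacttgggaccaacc
RT1-DOb, chr20:4627582-4627657, minus strand: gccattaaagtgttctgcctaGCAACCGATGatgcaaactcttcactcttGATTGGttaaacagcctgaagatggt
RT1-DMa, chr20:4712375-4712450, minus strand: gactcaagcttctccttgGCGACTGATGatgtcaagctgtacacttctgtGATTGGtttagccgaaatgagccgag
RT1-Ba, chr20:4576963-4577038, plus strand: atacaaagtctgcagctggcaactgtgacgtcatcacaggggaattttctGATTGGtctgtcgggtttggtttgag
RT1-DOa, chr20:4758506-4758581, minus strand: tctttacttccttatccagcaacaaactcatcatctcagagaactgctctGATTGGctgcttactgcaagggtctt
In the 5 windows with both strings the gap between them was 22 bases for RT1-Da and RT1-DMa, 21 for RT1-Db1 and RT1-Bb, and 19 for RT1-DOb. RT1-Ba and RT1-DOa held GATTGG without the X-like string as spelled here. The Cd74 window, on chromosome 18, held CCAAT but neither string. A match is a description of letters, not of binding.

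The libraries held 7964 analysed cells in TA DMD, 2083 in TA WT, 2261 in EOM DMD and 1249 in EOM WT. Median UMIs per cell were 1220 in TA DMD, 2484 in TA WT, 4488 in EOM DMD and 3650 in EOM WT. Levels are UMIs per 1000000 UMIs of the cells summed (CPM). Hoxc10, a factor of the hind limb, stood at 6.31 CPM in TA DMD and 9.08 CPM in TA WT and was at 0 in both EOM libraries. Dmd, the dystrophin gene, stood between 21.9 and 29.6 CPM in the 4 libraries, and a 3′ tag need not report a lesion elsewhere in the gene. Of the analysed barcodes, 11 occurred in more than 1 library. Cells were grouped into 32 clusters without the 10 members and RT1-Db2, a near copy of RT1-Db1, and classes were named "X-like" from marker genes. The 3 clusters left unnamed held 1254 cells, 1218 of them from TA DMD.

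The 10 members had 136221 UMIs over all cells, in 1665 of the 13557 cells. Cd74 was the most abundant with 43028 UMIs, followed by RT1-Da with 29228, RT1-Db1 with 28716, RT1-Bb with 20236 and RT1-Ba with 14470. These 5 genes encode the invariant chain and the chains of both classical molecules. In 3′ data 1 UMI stands for 1 tagged transcript end whatever the transcript's length. Genes can still differ in how well their 3′ ends are annotated and in reads shared with near copies. This order is thus that of the counts. The other members had few counts: RT1-DOa had 324 UMIs, Ciita 118, RT1-DOb 84 and RT1-DMb 17.

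RT1-DMa, the alpha chain of the peptide editor, was listed at 0 in every library, although its promoter window holds the same strings as that of RT1-Da. A count of 0 allows up to 0.156 CPM in TA DMD, 0.447 in TA WT, 0.247 in EOM DMD and 0.460 in EOM WT (3 counts per library). Whether its annotated 3′ end lies where the tags fall was not tested, so this 0 does not show that the gene was silent. The near copy RT1-Db2 had 8 UMIs in TA DMD, 0 in TA WT, 10 in EOM DMD and 5 in EOM WT, and reads common to it and RT1-Db1 may be missing from both.

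Nearly all class II RNA lay in a small share of the cells. Taken as a whole class, macrophage/monocyte-like cells had all 12 measured markers of their list of 13 at least 2-fold over other cells. They were 5.96% of the cells of TA DMD and held 94.6% of its class II UMIs. In TA WT they were 0.864% of the cells and held 75.6%, and 4 B cell-like cells held 22.9%. They held 90.2% in EOM DMD and 95.5% in EOM WT. The named non-immune classes made up 75.9% of the cells of TA DMD, 96.9% of TA WT, 86.3% of EOM DMD and 93.8% of EOM WT. They held 2.56% of the class II UMIs in TA DMD, 0.941% in TA WT, 0.497% in EOM DMD and 0.545% in EOM WT.

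Over all analysed cells, the summed class II level was 2791 CPM in TA DMD (2767 to 2814), against 459 CPM in TA WT (443 to 475). The ratio was 6.08-fold (5.86 to 6.31), or 2.58 on the log2 scale with a prior of 10 CPM added on both sides. A gene counted as measured with at least 20 CPM in either library and 10 UMIs over both, and as called when its log2 ratio with the prior passed 2-fold. The members measured were the 5 abundant ones, and all 5 were called higher, where 5.8% of all 6464 measured genes were higher and 3.02% lower. Cd74 stood at 837 CPM in TA DMD and 172 CPM in TA WT, the lowest ratio among the 5 (4.87-fold, 4.59 to 5.18). RT1-Db1 stood at 628 CPM in TA DMD and 87.3 CPM in TA WT, the highest (7.19-fold, 6.62 to 7.83). With cells thinned to 1000 UMIs the log2 ratio of the sum was 3.46.

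In the eye muscles the summed level over all cells was 4403 CPM in EOM DMD (4366 to 4440) and 3995 CPM in EOM WT (3947 to 4044), a ratio of 1.10-fold (1.09 to 1.12). None of the 5 abundant members was called, where 2.69% of the 6323 measured genes were higher and 0.791% lower. Their ratios ran between 1.01-fold for RT1-Ba (0.967 to 1.06) and 1.17-fold for RT1-Db1 (1.13 to 1.21). Among cells with at least 500 genes the direction turned, with a log2 ratio of -0.14 in place of 0.14.

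Within macrophage/monocyte-like cells the muscles went opposite ways. In TA the summed level was 47834 CPM in TA DMD (47418 to 48252, 475 cells), against 16830 CPM in TA WT (16153 to 17527, 18 cells). That was 2.84-fold higher in TA DMD (2.73 to 2.96). Of the 8 members measured, 5 were called higher and none lower, where 14.4% of the 5978 measured genes were higher and 10.3% lower. Cd74 had the smallest ratio of these 5, with 14258 CPM in TA DMD and 6106 CPM in TA WT, and RT1-Db1 the largest, with 10780 CPM in TA DMD and 3353 CPM in TA WT. RT1-DOa stood at 66.2 CPM in TA DMD and 28.9 in TA WT, and its ratio of 2.29-fold rests on 4 UMIs in TA WT (0.855 to 8.63). Ciita stood at 34.97 CPM in TA DMD and 28.9 in TA WT and was not called. The median log2 ratio was 1.39 over the 8 members and -0.09 over all measured genes.

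In EOM the summed level of the same class was 34447 CPM in EOM DMD (34140 to 34755, 139 cells), against 65781 CPM in EOM WT (64966 to 66604, 41 cells). The ratio was 0.524 (0.516 to 0.532), a log2 difference of -0.93. Of the 8 members measured, 2 were called lower and none higher, where 2.64% of the 5421 measured genes were lower and 2.9% higher. They were RT1-Ba, with 3597 CPM in EOM DMD and 7579 CPM in EOM WT, and RT1-DOa, with 67.0 CPM in EOM DMD and 193 CPM in EOM WT. The other 4 abundant members had log2 ratios between -0.98 and -0.82, just inside the limit of 2-fold. The median log2 ratio was -0.94 over the 8 members and 0.01 over all measured genes. The difference between the muscles was not tested, and both WT values rest on fewer than 50 cells.

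The cells behind these averages differed in kind. The class consisted of 3 clusters, and their mixture differed between libraries. The C1q-led cluster, with C1qa, C1qb and C1qc among its leading genes, had 115 cells in TA DMD, 2 in TA WT, 70 in EOM DMD and 27 in EOM WT. A cluster with Slpi, Clec10a and Cd83 among its leading genes had 267 cells in TA DMD, 0 in TA WT, 6 in EOM DMD and 2 in EOM WT. A cluster with Napsa, Plac8 and Il1b among its leading genes had 93 cells in TA DMD, 16 in TA WT, 63 in EOM DMD and 12 in EOM WT. No dendritic class formed. In the C1q-led cells of TA DMD that had at least 1% of their UMIs from class II, the dendritic cell genes Xcr1, Ccr7, Cd209a and Siglech were at 0 and Clec9a and Zbtb46 at 3.12 CPM. Of the same list, Flt3 stood at 18.7 CPM there and at 0 in the C1q-led cells below 1%, Batf3 at 46.8 CPM and 0, and Clec10a, a lectin of macrophages and some dendritic cells, at 2285 and 1327 CPM. In EOM DMD Flt3 stood at 20.7 CPM in the cells at or above 1% and 5.43 CPM in those below, and Batf3 at 41.3 and 10.9 CPM. Clec10a went the other way in EOM DMD, with 2414 CPM at or above 1% and 3661 CPM below. So did Fscn1 of the same list, with 2.95 and 8.14 CPM. The Clec10a and Slpi-led cells of TA DMD at or above 1% had Lyz2 at 10426 CPM and Csf1r at 241 CPM. Other markers of the class varied in them. Cd68 stood at 380 CPM, Mrc1 at 311, C1qa at 212, and Cd14 and Fcgr1a at 202 CPM. C1qc stood at 43.0 CPM, Adgre1 at 26.4, C1qb and Cd163 at 16.5 and Ms4a7 at 3.31 CPM. Flt3 stood at 26.4 CPM in these cells and 30.5 CPM in those of the cluster below 1%, and Batf3 at 26.4 and 61.1 CPM. Whether dendritic cells are among the cells rich in class II was not tested.

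The Napsa and Plac8-led cells were low in class II in each library, with 1187 CPM in TA DMD, 2137 in TA WT, 5905 in EOM DMD and 1318 in EOM WT. Of the 18 macrophage/monocyte-like cells of TA WT, 16 lay in that cluster. The C1q-led cluster stood at 65833 CPM in TA DMD and at 127426 CPM in the 2 cells of TA WT, so within it the TA direction turned (log2 ratio -0.95). The direction also turned in the Napsa and Plac8-led cluster, with 1187 CPM in TA DMD (1054 to 1332) and 2137 CPM in TA WT (1885 to 2412). TA DMD was thus lower in both clusters that the TA libraries share. In EOM the C1q-led cells had 51273 CPM in EOM DMD and 85561 CPM in EOM WT, the direction of the whole class (-0.74), while the Napsa and Plac8-led cells ran against it, with 5905 CPM in EOM DMD (5704 to 6112) and 1318 CPM in EOM WT (1077 to 1597). The Clec10a and Slpi-led cells of TA DMD stood at 56551 CPM. The cluster mixture thus moved with the TA difference, and its part in that difference was not tested.

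**Figure D1:**
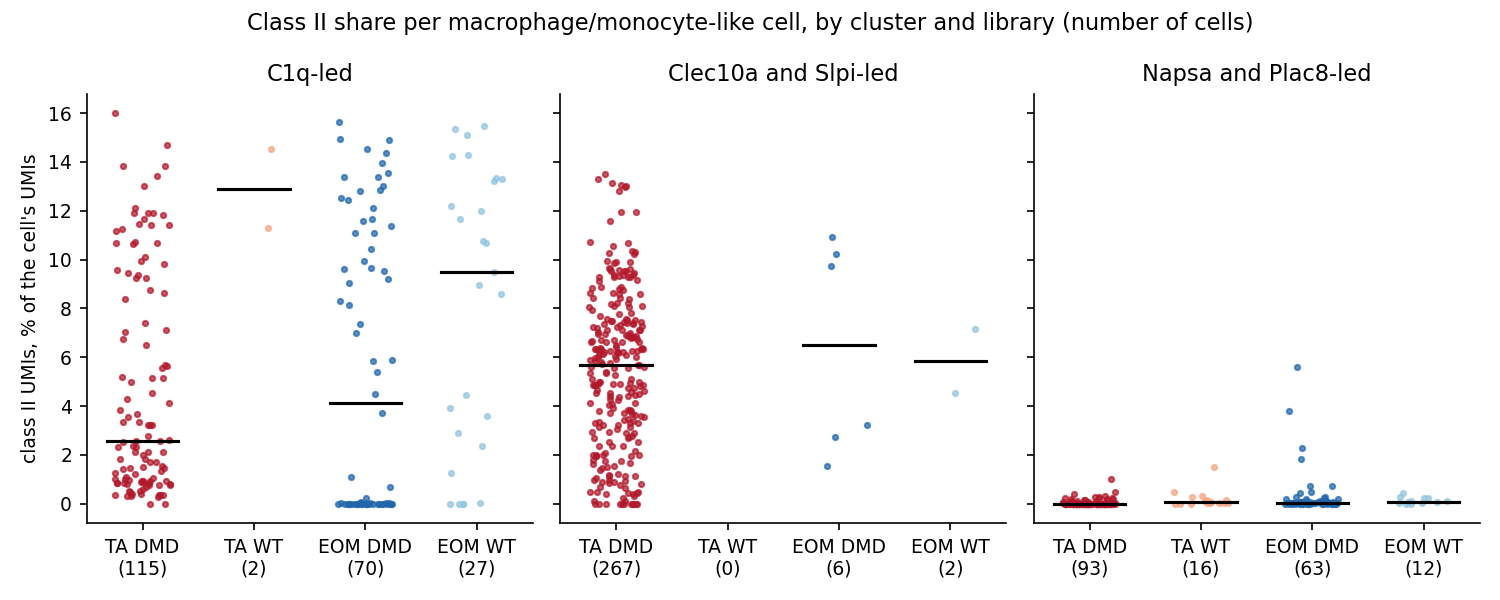
Share of each macrophage/monocyte-like cell's UMIs that came from the 10 class II members (percent), by cluster (panels) and library, with the number of cells below each library and the median as a black bar. The medians of the Napsa and Plac8-led cluster lie near 0 in all 4 libraries, while C1q-led cells of EOM DMD comprise 22 cells at 0 and others up to 15.6%.

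Per cell, class II reached a large part of the RNA. The highest C1q-led cells had 16.0% of their UMIs from the members in TA DMD, 14.5% in TA WT, 15.6% in EOM DMD and 15.5% in EOM WT. Cells at or above 1% class II were 319 of 475 macrophage/monocyte-like cells in TA DMD (67.2%, 62.7 to 71.4) and 3 of 18 in TA WT (16.7%, 3.58 to 41.4). They were 47 of 139 in EOM DMD (33.8%, 26.0 to 42.3) and 24 of 41 in EOM WT (58.5%, 42.1 to 73.7). Within each muscle the share of such cells was higher in the library with the higher level. With each cell thinned to 1000 UMIs, macrophage/monocyte-like cells had 44.3 class II UMIs per cell in TA DMD and 16.1 in TA WT. In EOM they had 31.6 per cell in EOM DMD and 54.95 in EOM WT, and within each muscle the order was that of the level. The thinning left out 195 of the 475 cells of TA DMD as too shallow, 0 of 18 in TA WT, 1 of 139 in EOM DMD and 1 of 41 in EOM WT.

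The C1q-led cells of EOM DMD were split. No class II UMI was found in 22 of the 70 cells, although the median C1q-led cell of that library had 10700.5 UMIs, and 37 cells were at or above 1%. Around the limit of 1%, between 0.5% and 2%, lay 2 of the 70 cells. EOM WT was alike, as 1 of its 27 C1q-led cells lay in that range, 22 were at or above 1% and 4 were at 0. In TA DMD 37 of 115 cells lay in that range, so there the limit cuts a continuous range.

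On both sides of that limit, C1q-led cells of EOM DMD also differed in other macrophage genes, given here with class II UMIs left out of the totals. Cd163, a scavenger receptor of resident macrophages, stood at 210 CPM in the 37 cells at or above 1% class II (164 to 264) and at 1460 CPM in the 33 cells below it (1339 to 1589). A Cd163 UMI was present in 40.5% of the cells at or above 1% (24.8 to 57.9) and in 93.9% of those below (79.8 to 99.3). Mrc1, the mannose receptor, stood at 762 CPM in the cells at or above 1% and 2904 CPM in those below. Csf1r, the receptor of the macrophage growth factor, stood at 998 CPM in the cells at or above 1% and 2288 CPM in those below. Lyz2, lysozyme, went the other way, with 16140 CPM in the cells at or above 1% and 7126 CPM in those below. The cells at or above 1% had a median of 9887 UMIs and those below 12212, and the part of depth in the split was not tested.

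In TA DMD the same limit gave the opposite order for these receptors. Cd163 stood at 150 CPM in the 83 cells at or above 1% (110 to 199) and 46.1 CPM in the 32 cells below (14.96 to 108). Mrc1 stood at 921 CPM in the cells at or above 1% and 544 CPM in those below, and C1qa at 2940 CPM in the cells at or above 1% and 1041 CPM in those below. In EOM DMD, C1qa stood at 4516 CPM in the cells at or above 1% and 10594 CPM in those below. The cells at or above 1% in TA DMD had a median of 1948 UMIs and those below 1529.5. C1q-led cells of high Cd163 and little class II were thus seen in EOM DMD and not at this limit in TA DMD, and the difference between the muscles was not tested.

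**Figure D2:**
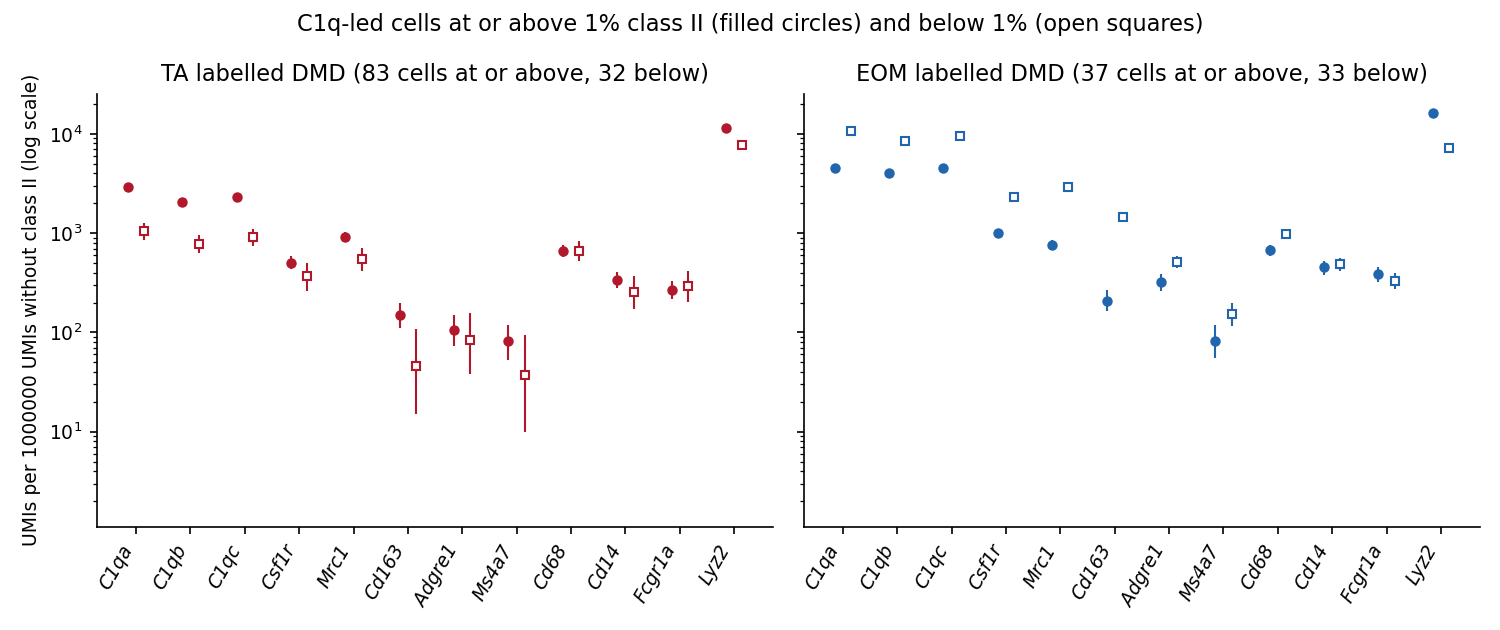
Level of macrophage markers (UMIs per 1000000 UMIs other than class II, log axis) in C1q-led cells at or above 1% class II (filled circles) and below 1% (open squares), in TA DMD (left) and EOM DMD (right), with 95% counting intervals. In EOM DMD Cd163 is at 210 and 1460 CPM, in TA DMD at 150 and 46.1 CPM.

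Ciita, the coactivator, was found in few cells, mostly in those rich in class II. In EOM DMD, 18 of 139 macrophage/monocyte-like cells had a Ciita UMI, 17 of them at or above 1% class II. The median class II share was 11.0% in the cells with Ciita and 0.0319% in the cells without. In EOM WT all 13 cells with Ciita were at or above 1%, with a median of 12.0%, against 0.230% in the cells without. In TA DMD 24 of 26 were at or above 1%, with a median of 7.66% against 3.21% in the cells without, and in TA WT 2 of 4 were. Deeper cells show more rare UMIs, and the part of depth in this was not tested. Outside macrophage/monocyte-like and B cell-like cells Ciita had 3 UMIs in all, in T cell-like cells of EOM WT, mural-like cells of TA DMD and satellite-like cells of TA WT.

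The regulators of peptide loading had few UMIs in the same cells. RT1-DOb, the beta chain of RT1-DO, stood at 25.5 CPM in macrophage/monocyte-like cells of TA DMD, 14.5 in TA WT, 15.7 in EOM DMD and 31.7 in EOM WT. RT1-DMb, the beta chain of the peptide editor, had 16 of its 17 UMIs in macrophage/monocyte-like cells and 1 in a B cell-like cell. These counts are too few to compare between groups.

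B cell-like cells, in which all 8 listed markers stood at least 2-fold over other cells, were few, with 2 in TA DMD, 4 in TA WT, 26 in EOM DMD and 6 in EOM WT. All 38 were at or above 1% class II. Their summed level did not differ beyond counting error from that of macrophage/monocyte-like cells in TA DMD, at 42669 CPM (37630 to 48194), or in EOM DMD, at 34709 CPM (33736 to 35703). It was above theirs in TA WT, at 35579 CPM (33003 to 38303), and below in EOM WT, at 49525 CPM (46455 to 52744). At these cell numbers DMD and WT were not compared within the class.

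The make-up of the class II RNA differed between B cell-like and macrophage/monocyte-like cells in the same direction in the 4 libraries for 3 members. Cd74 was 44.4% of the class II UMIs of B cell-like cells in TA DMD, 41.9% in TA WT, 37.6% in EOM DMD and 41.4% in EOM WT. In macrophage/monocyte-like cells Cd74 was 29.8% in TA DMD, 36.3% in TA WT, 31.6% in EOM DMD and 32.7% in EOM WT. The invariant chain thus took a larger part in B cell-like cells.

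Both beta chains took a smaller part there. RT1-Db1 was 15.4% in B cell-like cells of TA DMD, 15.01% in TA WT, 15.2% in EOM DMD and 14.7% in EOM WT, against 22.5% in macrophage/monocyte-like cells of TA DMD, 19.9% in TA WT, 21.1% in EOM DMD and 19.6% in EOM WT. RT1-Bb was 9.27% in B cell-like cells of TA DMD, 10.2% in TA WT, 10.7% in EOM DMD and 11.8% in EOM WT, against 14.7% in macrophage/monocyte-like cells of TA DMD, 13.2% in TA WT, 15.9% in EOM DMD and 14.9% in EOM WT. The counting intervals were apart for Cd74 and RT1-Db1 in each library, except that those of Cd74 just overlapped in TA WT, and for RT1-Bb they overlapped in TA WT (8.07 to 12.7 and 11.9 to 14.7). The alpha chain RT1-Ba had overlapping intervals in each library. RT1-Da did in 3 libraries, and in EOM DMD it was 24.3% in B cell-like cells (23.1 to 25.6) and 20.6% in macrophage/monocyte-like cells (20.3 to 21.0).

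RT1-DOa, the alpha chain of RT1-DO, took a larger part in B cell-like cells of EOM DMD, with 0.726% (0.506 to 1.01), against 0.194% (0.157 to 0.238) in macrophage/monocyte-like cells. In TA WT it was 1.84% in B cell-like cells (0.984 to 3.13) and 0.172% in macrophage/monocyte-like cells (0.0468 to 0.439). In TA DMD and EOM WT the intervals overlapped, with 2 and 6 RT1-DOa UMIs in B cell-like cells. HLA-DO is known from human B cells. Ciita stood at 86.4 CPM in B cell-like cells of EOM DMD (44.7 to 151) and 25.7 CPM in macrophage/monocyte-like cells (18.0 to 35.5).

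**Figure D3:**
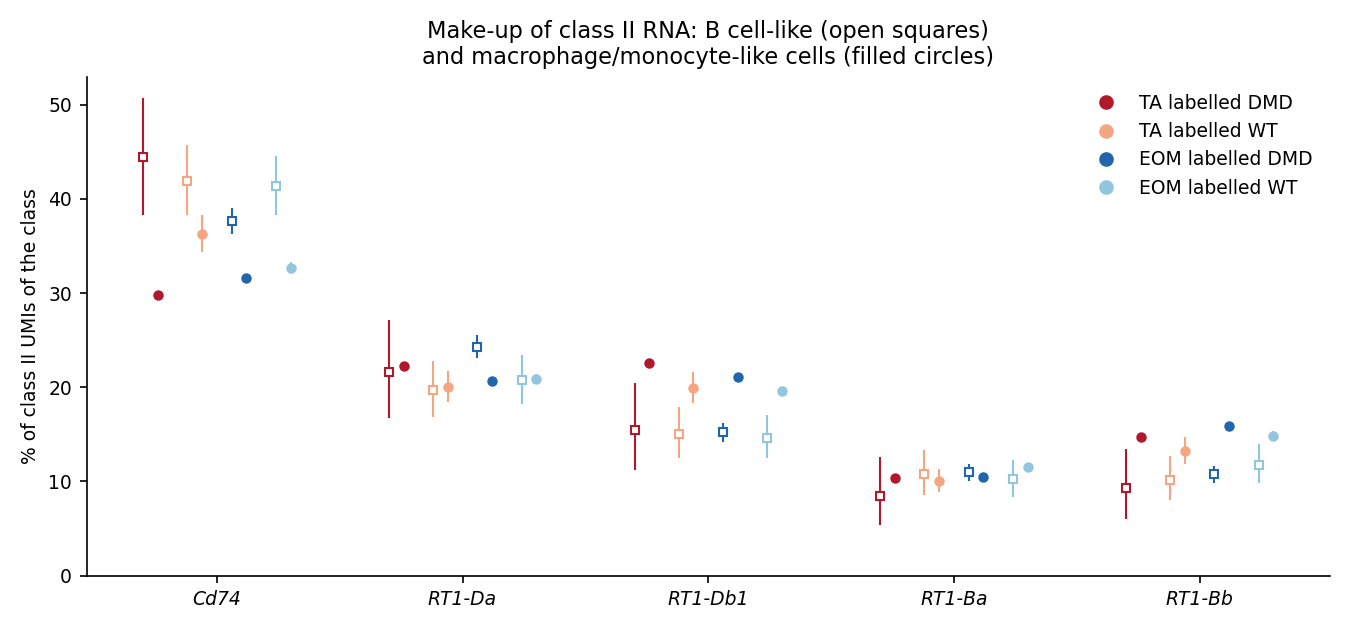
Share of each of the 5 abundant members in the class II UMIs (percent) of B cell-like (open squares) and macrophage/monocyte-like cells (filled circles) in the 4 libraries, with 95% exact binomial intervals. Cd74 is higher and RT1-Db1 and RT1-Bb lower in B cell-like cells in each library.

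NK-like and T cell-like cells stood far lower. NK-like cells had 930 CPM in TA DMD (165 cells), 97.4 in TA WT (20 cells), 155 in EOM DMD (37 cells) and 80.2 in EOM WT (16 cells). In TA DMD 14 NK-like cells were at or above 1% class II, and in EOM DMD 1. RT1-Bb took a small part in NK-like cells of TA DMD, with 12 of 254 class II UMIs (4.72%, 2.46 to 8.11), against 14.7% in its macrophage/monocyte-like cells (14.4 to 15.01). Cd74 took a larger part there, with 43.3% (37.1 to 49.6), near its part in B cell-like cells. In TA WT, 9 of the 16 class II UMIs of NK-like cells were RT1-Db1 and 6 were RT1-Ba, with RT1-Da and RT1-Bb at 0. T cell-like cells had 305 CPM in EOM DMD (243 to 379, 45 cells) and 990 CPM in EOM WT (752 to 1280, 10 cells), and the TA libraries held too few of them for a level.

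Endothelial-like cells had a larger DMD over WT ratio in TA than macrophage/monocyte-like cells, at a far lower level, and it rested on few cells. The summed level was 118 CPM in TA DMD (110 to 126, 780 UMIs in 2678 cells) and 6.38 CPM in TA WT (4.13 to 9.42, 25 UMIs in 1575 cells), a ratio of 18.5-fold (12.4 to 28.7). The 3 members measured, Cd74, RT1-Da and RT1-Db1, were all called higher, where 3.87% of the 6278 measured genes were higher and 2.66% lower. Cd74 stood at 35.2 CPM in TA DMD and 2.81 CPM in TA WT.

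Of the 2678 endothelial-like cells of TA DMD, 18 held 496 of the 780 UMIs, and each of those 18 also had a UMI of an immune gene (Ptprc, Lyz2, Tyrobp or Cd79a). A Plvap-led cluster held 605 of the 780 UMIs and 17 of those 18 cells. It had 722 cells in TA DMD and 14 in TA WT, with 0 UMIs there. The other endothelial-like clusters were each higher in TA DMD too, at 27.0 to 91.0 CPM against 3.46 to 14.3 CPM in TA WT. The part of cluster mixture in the ratio was not tested. With the members among the clustering genes the log2 ratio of the class was 1.43, in place of 2.96. An immune gene UMI was found in 166 cells of TA DMD (6.20%) and in 120 cells of TA WT (7.62%). Without these cells the level was 30.1 CPM in TA DMD (25.9 to 34.8) and 6.47 CPM in TA WT (4.10 to 9.71), or 0.0732 class II UMIs per cell in TA DMD and 0.0158 in TA WT. In EOM, endothelial-like cells had 33.7 CPM in EOM DMD (25.5 to 43.8) and 37.1 CPM in EOM WT (27.8 to 48.6), a ratio of 0.909 (0.613 to 1.35). No member was measured well enough there for a call, and 1.37% of the 6271 measured genes were higher and 0.813% lower.

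Other non-immune classes of TA DMD showed the same concentration in few cells. In satellite-like cells, the muscle stem cells, 4 of 307 cells held 160 of the 183 class II UMIs, and in mural-like cells, the cells around vessels, 2 of 816 held 91 of 169. FAP/fibroblast-like cells, the interstitial progenitors, had 128 UMIs in 1373 cells, with no cell at 10 UMIs or more.

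Among cells without an immune gene UMI, the named non-immune classes with at least 50 cells had between 0.0410 (tenocyte-like) and 0.1004 (Schwann-like) class II UMIs per cell in TA DMD. The range was 0 (myofibre-like) to 0.0183 (mural-like) in TA WT. It was 0.0470 (myofibre-like) to 0.214 (tenocyte-like) in EOM DMD and 0.0476 (erythroid-like) to 0.189 (satellite-like) in EOM WT. UMIs per cell depend on depth, which differed between libraries, and in CPM the order of the highest values differed. The CPM range was 20.6 to 71.2 in TA DMD, 0 to 6.47 in TA WT, 17.1 to 35.1 in EOM DMD and 2.41 to 37.0 in EOM WT. The low level was lowest in TA WT, where the summed level over all cells was also lowest.

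Erythroid-like cells, which are not expected to make class II, were set beside these classes. With cells thinned to 1000 UMIs, 2 of 29 erythroid-like cells had a class II UMI in TA DMD (6.90%, 0.846 to 22.8). None of 49 did in TA WT, which allows up to 6.12%, none of 8 in EOM DMD, which allows up to 37.5%, and none of 63 in EOM WT, where the limit is 4.76%. Endothelial-like cells at the same depth were at 4.10% in TA DMD (3.24 to 5.13), 0.364% in TA WT (0.118 to 0.848), 4.09% in EOM DMD (2.55 to 6.18) and 3.55% in EOM WT (2.12 to 5.55). The thinning left out 875 endothelial-like cells in TA DMD, 202 in TA WT, 71 in EOM DMD and 41 in EOM WT.

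Unthinned, the endothelial-like share was 8.14% in TA DMD (median depth 1688 UMIs), 1.52% in TA WT (2305 UMIs), 9.06% in EOM DMD (2558 UMIs) and 9.12% in EOM WT (2211 UMIs). Unthinned, a class II UMI was in 3 of 42 erythroid-like cells in TA DMD (median depth 1200 UMIs), 0 of 49 in TA WT (19689 UMIs), 0 of 8 in EOM DMD (17977.5 UMIs) and 3 of 63 in EOM WT (20237 UMIs). The erythroid-like cells are few, and thinning removes most of their UMIs in 3 libraries, so the limits at matched depth are wide. Over cells without an immune gene UMI, endothelial-like cells of EOM WT stood at 36.95 CPM (27.5 to 48.6) and erythroid-like cells at 2.41 CPM (0.496 to 7.04), or 0.0959 and 0.0476 class II UMIs per cell. In TA DMD endothelial-like cells stood at 30.1 CPM (25.9 to 34.8) and erythroid-like cells at 40.8 CPM (8.41 to 119). Whether the low signal in non-immune cells is free RNA or expression was not tested.

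The make-up of this low signal was close to that of macrophage/monocyte-like cells for the abundant members in TA DMD, and differed for RT1-DOa. In non-immune cells without an immune gene UMI, Cd74 was 32.6% (28.3 to 37.3) and RT1-Db1 23.1% (19.2 to 27.3) of the 438 class II UMIs of TA DMD. In EOM DMD Cd74 was 24.8% of 234 UMIs (19.4 to 30.8), just below its 31.6% in macrophage/monocyte-like cells (31.2 to 32.0). RT1-DOa was 1.83% in TA DMD (8 UMIs, 0.792 to 3.57), against 0.138% in its macrophage/monocyte-like cells (0.108 to 0.175). In EOM DMD RT1-DOa was 5.56% (13 UMIs, 2.99 to 9.31), against 0.194% (0.157 to 0.238), and in EOM WT 2.29% (3 UMIs, 0.475 to 6.55), against 0.293% (0.230 to 0.369). RT1-DOa thus took a larger part in these cells than in macrophage/monocyte-like cells in the 3 libraries where it was found, on few UMIs, and was not found among the 27 UMIs of TA WT.

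**Figure D4:**
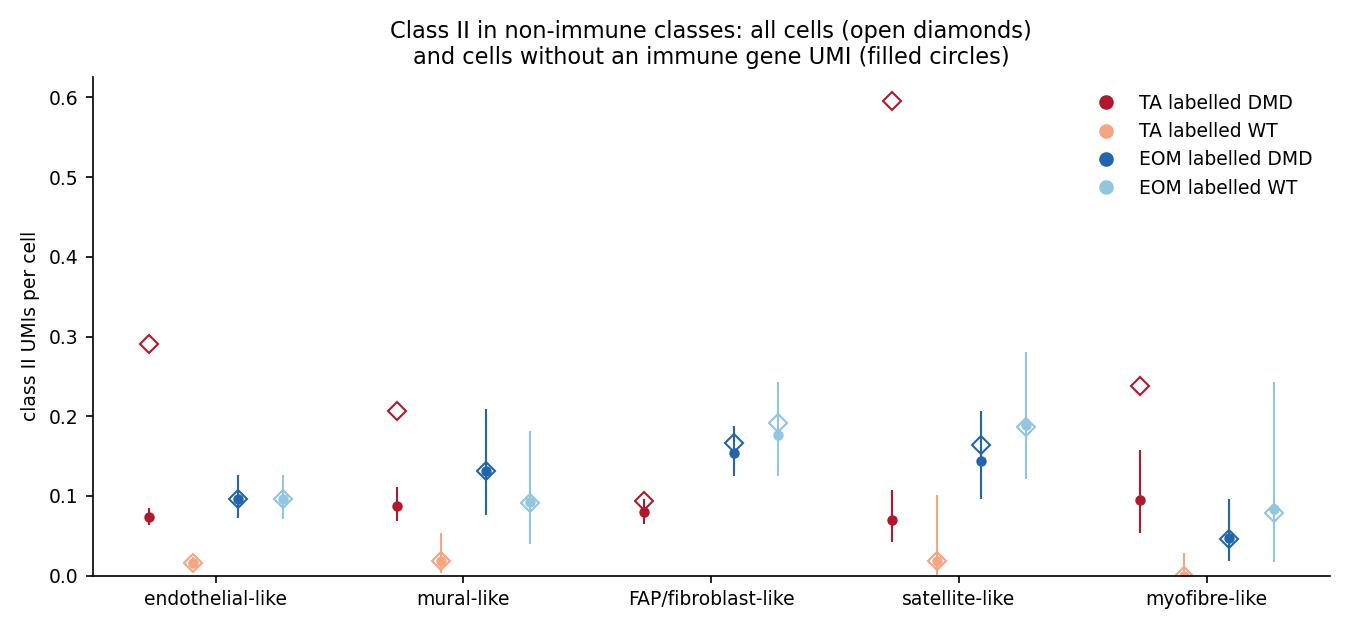
Class II UMIs per cell in 5 non-immune classes of the 4 libraries, over all cells (open diamonds) and over cells without a UMI of Ptprc, Lyz2, Tyrobp or Cd79a (filled circles, with 95% counting intervals); FAP/fibroblast-like cells of TA WT, 9 in number, are left out. In TA DMD the endothelial-like value is 0.291 over all cells and 0.0732 without immune gene UMIs, against 0.0159 and 0.0158 in TA WT.

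Genes that act with class II were counted in macrophage/monocyte-like cells by the same rule. Of 8 measured genes for antigen processing and turnover, 4 were higher in TA DMD than in TA WT and none lower, where 14.4% of all measured genes were higher and 10.3% lower. Their median log2 ratio was 0.61. Ctsl, a cathepsin that can cut the invariant chain, stood at 409 CPM in TA DMD and 43.4 CPM in TA WT. Ifi30, a lysosomal thiol reductase, stood at 991 CPM in TA DMD and 267 CPM in TA WT, and Lgmn, an asparagine endopeptidase, at 339 CPM in TA DMD and 152 CPM in TA WT. Cd63, a tetraspanin of late endosomes, stood at 998 CPM in TA DMD and 101 CPM in TA WT. Ctss, the cathepsin known for the last step of invariant chain cutting, had 466 CPM in TA DMD and 643 CPM in TA WT and was not called.

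Of 8 measured transactivation genes, none was called higher in TA DMD. Spi1, the myeloid factor PU.1, was called lower, with 231 CPM in TA DMD and 650 CPM in TA WT. Nfyb, an NF-Y subunit, just missed the limit with 31.2 CPM in TA DMD and 72.3 CPM in TA WT. Rfxap, an RFX subunit, was at 0 in the class in all 4 libraries. It was also at 0 in B cell-like, T cell-like, NK-like, endothelial-like and FAP/fibroblast-like cells of each library. Whether its annotated 3′ end lies where the tags fall was not tested, so this 0 does not show that Rfxap was silent. Among 7 measured class I genes, which serve presentation to CD8 T cells, none was higher and 4 were lower, where 10.3% of all measured genes were lower: RT1-A1, RT1-A2, Psmb8 and Psmb9. RT1-A1 stood at 925 CPM in TA DMD and 2262 CPM in TA WT.

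Of 10 measured interferon gamma pathway genes 3 were called higher in TA DMD (Socs1, Cxcl9 and Cxcl10), where 14.4% of all measured genes were, and each of these calls rests on at most 1 UMI in TA WT. Gbp2, an interferon-induced GTPase, was called lower, with 46.3 CPM in TA DMD and 181 CPM in TA WT. Socs1 had 33 UMIs in TA DMD and 1 in TA WT, Cxcl9 34 UMIs in TA DMD and 0 in TA WT, and Cxcl10 30 UMIs in TA DMD and 0 in TA WT. Of 5 measured costimulation genes none was called in either direction. Cd4, the T cell partner of class II that rat macrophages also carry, stood at 84.1 CPM in TA DMD and 210 CPM in TA WT and was called lower. The TA WT levels of these lists come from the 18 cells described above.

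In EOM the same lists held 1 call in macrophage/monocyte-like cells, where 2.9% of the 5421 measured genes were higher and 2.64% lower. Cd274, the checkpoint ligand PD-L1 and 1 of 5 measured costimulation genes, was higher with 66.3 CPM in EOM DMD and 13.2 CPM in EOM WT. Of 7 transactivation, 9 processing, 8 interferon gamma and 8 class I genes measured, and of Cd4, none was called in either direction. In endothelial-like cells, Icam1, an adhesion molecule, was called higher in TA DMD, with 116 CPM against 6.13 CPM in TA WT, as were Cd63 and Cxcl10. Of all 6278 genes measured there, 3.87% were higher in TA DMD and 2.66% lower. Irf1, an interferon response factor, was called higher in EOM DMD, with 800.2 CPM against 352 CPM in EOM WT. Its TA ratio was not called, with 548 CPM in TA DMD and 289 CPM in TA WT (1.90-fold, 1.77 to 2.03). Pdcd1lg2, the ligand PD-L2, was lower in both muscles. Of the 6271 genes measured in endothelial-like cells of EOM, 1.37% were higher and 0.813% lower.

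The genes whose pattern was most like the summed class II level were sought over 29 combinations of class and library with at least 50 cells, among 11718 genes, by Pearson correlation of log2 CPM with the same prior. The highest were RGD1559482 with 0.956, LOC690045 with 0.946, LOC690097 with 0.942, Spn with 0.927 and Clec4a1 with 0.926. Dapp1, Cybb, Pld4, Fcgr3a and LOC497796 followed, down to 0.923. Among the members, Cd74 correlated with the sum that includes it at 0.991, and RT1-DMb at 0.823. B cell-like cells, and macrophage/monocyte-like cells of TA WT and EOM WT, had fewer than 50 cells and were left out. The combinations richest in class II were thus macrophage/monocyte-like cells of TA DMD and EOM DMD. A gene of that class can therefore rank high without following class II within it. Combinations of 1 library share its depth and free RNA, so these values are a description.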

How the data were processed

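Cells of 4 libraries were profiled with 10x Genomics 3′ chemistry 3.1, per the labels' protocols. The authors deposited whole-number UMI counts per gene and barcode, made by Cell Ranger 4.0.0 per the file headers; the submitters' processing notes name build rn6, and the annotation is not given in the sources used here. Deposited libraries held 20685086, 9955900, 14953593 and 9468266 UMIs in 8944, 3550, 3093 and 1917 barcodes (TA DMD, TA WT, EOM DMD, EOM WT), each with at least 500 UMIs.

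Barcodes under 200 genes or over 20% mitochondrial UMIs were left out. Scrublet's own threshold marked 0.232% of cells, too few, so the highest scores were removed at 0.8% per 1000 cells (676 cells). Cells were clustered with scanpy 1.11.5 (2000 variable genes, 30 components, 15 neighbours, Leiden resolution 1) without the members or RT1-Db2. Names came from marker lists; 3 clusters with leading genes of several types were left unnamed after these were seen. Counts were summed by class and library and divided by the class total (CPM). Intervals are exact Poisson or Clopper-Pearson; calls were tested on simulated data. Named genes are the members, the listed pathway genes and the 10 most correlated genes. Some listed genes are not reported here. The members and lists were chosen with earlier results of these data known. With 1 library a group no p-value was computed. Alternatives changed cell filters, clustering, doublets, depth and prior.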

Additional observations from a re-analysis of the deposited data

Results flagged for a closer look

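The class II level of macrophage/monocyte-like cells was higher in TA DMD than in TA WT (log2 ratio 1.51) and lower in EOM DMD than in EOM WT (-0.93). It was picked out because the muscles went opposite ways; the difference was not tested, and the TA direction turned in both clusters the TA libraries share: among C1q-led cells, with 2 cells in TA WT, and among Napsa and Plac8-led cells, with 1187 CPM in TA DMD and 2137 CPM in TA WT. In EOM the Napsa and Plac8-led cells ran against the class, with 5905 CPM in EOM DMD and 1318 CPM in EOM WT.

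Barcodes left out for few genes or many mitochondrial UMIs also held class II UMIs. There were 1.02 per barcode in TA DMD (395 barcodes), against 0.0594 in TA WT (1431 barcodes), and 0.280 in EOM DMD (790 barcodes), against 0.0687 in EOM WT (655 barcodes). These barcodes enter no comparison above. At or above 1% class II were 4 of them in TA DMD, 1 in TA WT, 2 in EOM DMD and 1 in EOM WT.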

How the results depend on the processing

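The 6 DMD over WT ratios were recomputed under 42 alternatives in all: 26 stayed within the counting interval, 15 moved out of it, of which the EOM ratio over all cells changed sign in 1, and 1 called ratio turned. The alternative that turned it, C1q-led cells alone, was added after seeing the data: TA macrophage/monocyte-like cells then gave a log2 ratio of -0.95 in place of 1.51, and EOM gave -0.74 in place of -0.93. In TA this class gave 1.39 without doublet removal and 1.34 with the members among the clustering genes. In EOM it gave -0.91 for cells of 1000 UMIs or more and 10% mitochondrial UMIs or less, and -0.80 thinned to 1000 UMIs. TA endothelial-like cells gave 1.43 in place of 2.96 with the members among the clustering genes, 1.28 without cells with an immune gene UMI, and 4.01 with a prior of 1 CPM. Over all TA cells the ratio of 2.58 became 2.27 with the UMI and mitochondrial limits, 2.35 with at least 500 genes, 2.51 without doublet removal and 3.46 thinned. Over all EOM cells 0.14 became -0.14, 0.19 and 0.31 under the last 3 of these. For the clustering and doublet settings the cause was not tested. No paired analysis was possible because each group has 1 library. Low counts limit the DM chains, Ciita and every class under 50 cells, and the part of depth in the DM counts was not tested.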

Other observations

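Cells removed by doublet score held class II as well. Of the 585 removed from TA DMD 7.18% were at or above 1% class II, against 4.72% of its analysed cells, and of the 42 removed from EOM DMD 9.52%, against 3.27%. Neutrophil-like cells, another phagocyte class, had 49.5 CPM in TA DMD (53 cells, 13.5 to 127) and 68.3 CPM in EOM DMD (36 cells, 27.5 to 141). Mast-like cells, 14 in EOM DMD, had 2 class II UMIs. In TA DMD the unnamed clusters had 1016 class II UMIs in 1218 cells, with 886 of them in 26 cells.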
